A study of Mus musculus with 3 samples.

Results

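The binding of Tcf1 at the T cell receptor alpha and beta loci was examined in 2 lists of chromatin immunoprecipitation peaks, 1 from conventional CD4 T cells and 1 from regulatory T cells (Treg cells). Peaks were taken where they lay between 54.18 and 54.26 Mb of mouse chromosome 14, which holds the alpha constant gene Trac and its neighbour Dad1, or between 41.48 and 41.60 Mb of chromosome 6, which holds the beta constant genes Trbc1 and Trbc2 (mm10 build). This gave 14 of 7921 deposited peaks. Of these, 7 came from the 4519 conventional peaks and 7 from the 3402 Treg peaks, with 6 of each in the alpha window and 1 of each in the beta window. The windows were chosen with the positions of these peaks known. The members were thus chosen by the measured peak positions, and counts inside the windows are descriptions without a test.

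Both cell types were sorted from the spleen of wild-type mice aged 8 to 10 weeks that carry a Foxp3-Cre-GFP reporter, an allele shared by both groups. Conventional cells were TCRb+ CD4+ and lacked CD25 and the reporter (1 label calls them effector cells), while Treg cells were TCRb+ CD4+ and carried both. Each cell type had 1 library, immunoprecipitated with an antiserum against Tcf1. The labels do not say whether animals were pooled. A library of Tcf1-deficient CD4 T cells (CD4-Cre+ Tcf1 fl/fl) was not analysed here. The lists hold positions and no expression, so the sorts could not be checked by marker levels, and the sequencing depth is unknown. Every difference below is between 2 peak lists and has no replicate check. Binding in fewer cells and weaker binding in each cell cannot be told apart in such lists.

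Tcf1 is an HMG-box factor that binds the minor groove and bends DNA, and the T cell receptor alpha enhancer was among the first elements at which it and its relative Lef1 were studied. That enhancer lies downstream of Trac, toward Dad1, where it brings together sites for cAMP response element binding proteins, Tcf1 or Lef1, Runx and Ets factors. The beta enhancer lies between Trbc2 and the inverted variable segment Trbv31 and is known for its Runx and Ets sites. Trac, Trbc1 and Trbc2 encode the constant parts of the receptor chains. The variable parts come from variable and joining segments, with diversity segments in the beta locus, which are joined to one another by recombination during thymic development. Joining deletes the DNA between the segments used, so many unused segments are lost from the rearranged chromosome, while Trac, Trbc2 and the enhancers are kept. Trbc1 lies between the diversity segments Trbd1 and Trbd2, so it can be lost as well. Dad1 is a subunit of the oligosaccharyltransferase that attaches sugars to proteins in the endoplasmic reticulum, and it is expressed in many tissues. The gene table used here marks neither enhancer, so peaks are placed by their distance from genes.

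Sequence could be shown for 1 of the peak positions, the start sites that Dad1 and its neighbour Abhd4 share (Abhd4 encodes a hydrolase of lipid metabolism). Promoter windows of 300 bases, 250 before and 50 after a start site, came from RefSeq on GRCm38.p6, the assembly of mm10. The upper window below lay entirely inside a peak of both lists, and the lower window, at another annotated start site of Abhd4, was overlapped by no peak of either list. Both are printed 5′ to 3′ along the plus strand, with capitals marking matches to any of 8 motifs fixed for the search on both strands. They are shown because they let a start site under a shared peak be read beside a start site of the same gene without one.
Abhd4 and Dad1 start sites, chr14:54253879-54254178: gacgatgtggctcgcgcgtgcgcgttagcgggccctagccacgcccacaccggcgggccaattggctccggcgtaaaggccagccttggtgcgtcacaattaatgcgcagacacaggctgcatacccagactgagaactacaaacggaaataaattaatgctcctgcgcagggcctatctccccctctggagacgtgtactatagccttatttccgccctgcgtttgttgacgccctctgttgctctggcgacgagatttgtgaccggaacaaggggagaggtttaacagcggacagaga
Abhd4 downstream start site, chr14:54259033-54259332: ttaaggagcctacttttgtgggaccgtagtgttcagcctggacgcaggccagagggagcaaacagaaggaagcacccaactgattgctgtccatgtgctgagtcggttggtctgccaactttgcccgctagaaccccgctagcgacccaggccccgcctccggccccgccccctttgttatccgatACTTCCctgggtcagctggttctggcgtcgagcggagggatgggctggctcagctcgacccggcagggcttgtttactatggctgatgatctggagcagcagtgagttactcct

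The upper window held none of the 8 motifs, and the lower held 1 match, to the letters searched for Ets factors, on the minus strand and 64 bases before the start site. For Tcf1 and Lef1 the search used CTTTGA, present in 16.0% of all 32851 promoter windows, and its longer form CTTTGAA, present in 5.14%. Runx factors were searched by TGTGGT, which 16.8% of windows held. The letters for Ets factors were GGAAGT, found in 23.8% of windows, and those for Gata factors AGATAA, found in 11.2%. The cAMP response element TGACGTCA was found in 1.79%. The E-box CAGGTG was found in 20.2% of windows and a core motif of Ctcf in 3.43%. Among the 1055 windows overlapped by a peak of both lists, CTTTGA stood in 19.3%, CTTTGAA in 6.26%, GGAAGT in 33.9%, TGACGTCA in 4.64% and the Ctcf core in 7.58%. In the same windows TGTGGT stood in 11.2%, AGATAA in 3.79% and CAGGTG in 13.4%, lower shares than over all windows. In windows with a conventional peak, whether or not a Treg peak was there, CTTTGA stood in 14.7%, and in windows with a Treg peak in 16.8%. The shared start-site window was 57.3% G and C with 24 CG pairs, where the median over all windows was 52.7% with 7 and the median over windows with a peak in both lists was 64.0% with 26. A missing match says only that these letters are not in this window.

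Tcf1 peaks at the alpha locus were gathered between the constant gene and Dad1. Trac spans 54220521 to 54224198 and Dad1 spans 54235485 to 54253929, and the 11286 bp between them held 4 of the 6 conventional and 4 of the 6 Treg peaks. Peaks covered 24.8% of this gap in the conventional list (2794 bp) and 26.0% in the Treg list (2931 bp). In each list 3 of these 4 peaks overlapped a peak of the other list, as 42.8% of all conventional and 56.9% of all Treg peaks did. Trac and Dad1 are transcribed toward each other, so the gap lies downstream of both.

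**Figure D1:**
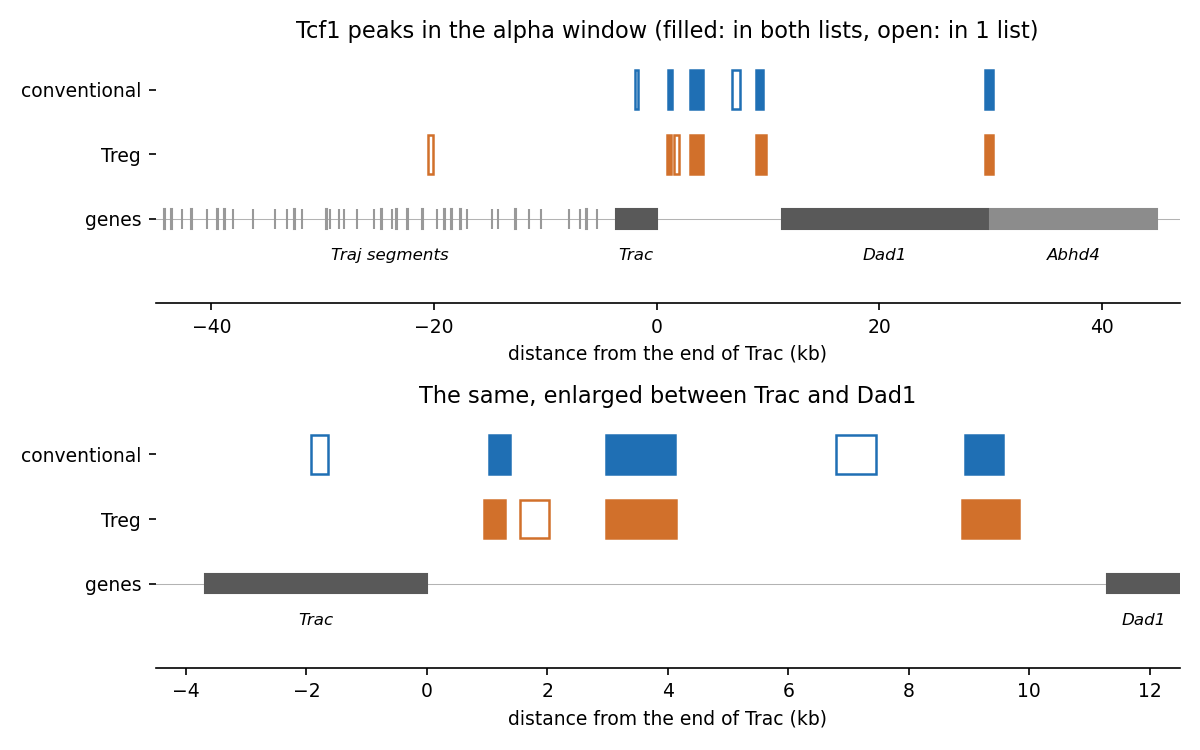
Position of Tcf1 peaks in the alpha window, drawn to scale as distance in kb from the end of Trac, with the conventional list above and the Treg list below. Filled boxes overlap a box of the other row, open boxes do not, grey boxes are genes and joining segments, and 4 peaks of each list stand between Trac and Dad1.

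The widest peak of either window was at the same place in both lists, 2981 bp beyond the end of Trac in the conventional list. In conventional cells it ran from 54227179 to 54228324 (1146 bp) and in Treg cells from 54227178 to 54228328 (1151 bp). It ranked 59 by width among 4519 conventional peaks and 47 among 3402 Treg peaks, at percentiles of 98.7 and 98.6. The left edges were 1 bp apart and the right edges 4 bp, so the conventional peak lay wholly inside the Treg peak. Peak width is the sole measure the lists give for a peak besides its position. It depends on read depth and calling threshold as well as on binding, so its differences between the lists cannot be read as differences of occupancy.

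Among the peaks of the gap, the one nearest Dad1 was the site where the lists differed most in width at a shared alpha peak. It ran from 54233136 to 54233757 in the conventional list (622 bp, percentile 82.8) and from 54233084 to 54234027 in the Treg list (944 bp, percentile 97.4). The Treg peak reached 52 bp further toward Trac and 270 bp further toward Dad1, ending 1458 bp from the Dad1 span. A narrower shared peak stood nearest to Trac. It ran from 54225226 to 54225577 in the conventional list (352 bp) and from 54225139 to 54225489 in the Treg list (351 bp), and 264 bp were common to both. Its width stood at percentile 27.0 of the conventional list and 45.2 of the Treg list, the lowest of the shared peaks in both.

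Each list also had 1 peak in the gap that overlapped none of the other. The conventional peak ran from 54230987 to 54231660 (674 bp, percentile 87.2), between the widest peak and the peak nearest Dad1, and the nearest Treg midpoint was 2232 bp away. The Treg peak ran from 54225745 to 54226229 (485 bp, percentile 76.9), between the peak nearest Trac and the widest peak. Its midpoint was 586 bp from that of a conventional peak, so it did not count as Treg alone, which asks for no midpoint of the other list within 1000 bp. The gap therefore held 1 peak found in the conventional list alone and none found in the Treg list alone.

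The other unshared peaks lay within the receptor locus itself. In the conventional list a peak from 54222281 to 54222564 lay inside the Trac span, and at 284 bp it was close to the narrowest the list holds (279 bp; percentile 2.1). In the Treg list a peak from 54203631 to 54204087 (457 bp, percentile 72.3) stood between the joining segments Traj16 and Traj15, 437 bp and 335 bp from them and 16434 bp before Trac. It overlapped no segment, and the nearest conventional midpoint was 18564 bp away. The window held 38 annotated Traj segments, and no other peak of either list lay among them.

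A shared peak covered the start sites of Dad1 and Abhd4, which point away from each other 200 bp apart. It ran from 54253737 to 54254407 in the conventional list (671 bp, percentile 86.9) and from 54253731 to 54254408 in the Treg list (678 bp, percentile 92.4). The edges differed by 6 bp and 1 bp. The peak reached 192 bp (conventional) and 198 bp (Treg) into Dad1 beyond its start site, and 278 bp and 279 bp into Abhd4. The body of Dad1 beyond it held no peak in either list. Of all 32851 promoter windows, 7.66% were overlapped by a conventional peak, 4.86% by a Treg peak and 3.21% by both. Among 3547 windows of genes that start head to head as Dad1 and Abhd4 do, the shares were 21.7%, 13.3% and 9.19%, and among the 29304 other windows they were 5.97%, 3.84% and 2.49%. A single peak can overlap both windows of a head-to-head pair, and these shares were not tested.

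At the beta locus each list had 1 peak, and the peaks overlapped. Trbc1 (chromosome 6, 41538219 to 41539665) and Trbc2 (41546730 to 41548181) held no peak themselves, and no peak lay among the 2 diversity and 14 joining segments around them. The conventional peak ran from 41554358 to 41554925 (568 bp, percentile 76.4) and the Treg peak from 41554326 to 41554730 (405 bp, percentile 60.8). Both stood in the 9511 bp between Trbc2 and Trbv31, 6177 bp and 6145 bp beyond the end of Trbc2 and 2768 bp and 2963 bp before Trbv31. The Treg peak began 32 bp earlier and ended 195 bp earlier, and 373 bp were common to both. The peaks covered 5.97% of the interval for conventional and 4.26% for Treg cells. No peak of either list lay within 10 kb of Trbc1.

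**Figure D2:**
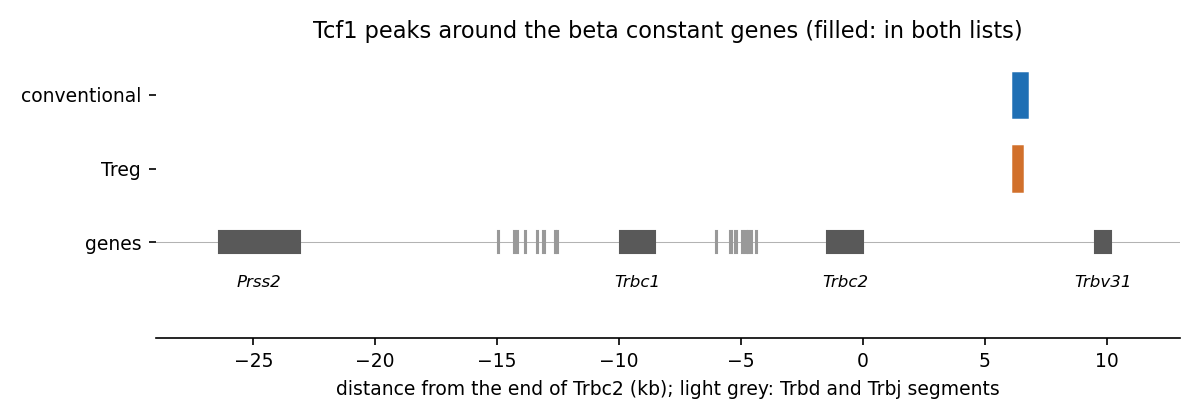
Position of the Tcf1 peaks around the beta constant genes, drawn to scale as distance in kb from the end of Trbc2, with light grey for the diversity and joining segments. The single peak of each list stands between Trbc2 and Trbv31, and none stands at Trbc1, Trbc2 or the segments.

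Of the 7 peaks of each list in the windows, 5 overlapped a peak of the other list. The shares over the whole lists, 42.8% and 56.9%, had 95% Clopper-Pearson intervals of 41.3% to 44.3% and 55.2% to 58.6%, which cover counting error only. With 7 peaks a list, and windows picked for their peaks, nothing was read from this difference. The 5 pairs fell into a set with nearly the same edges and a set with shifted edges. At the widest peak and at the Dad1 and Abhd4 start sites both edges agreed within 6 bp, as they did for 13 of all 1946 overlapping pairs of the lists (0.668%; the 6 bp limit was set after these values were seen). Their midpoints were 1.5 bp and 2.5 bp apart. In the other 3 pairs midpoints were 87.5 to 113.5 bp apart, where the median over all pairs was 59.5 bp. The Treg peak was the wider of the pair at 3 of the 5 sites, by 5, 7 and 322 bp, and it was the narrower by 1 bp nearest Trac and by 163 bp at the beta locus. Over all pairs the Treg peak was the wider in 30.3%.

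**Figure D3:**
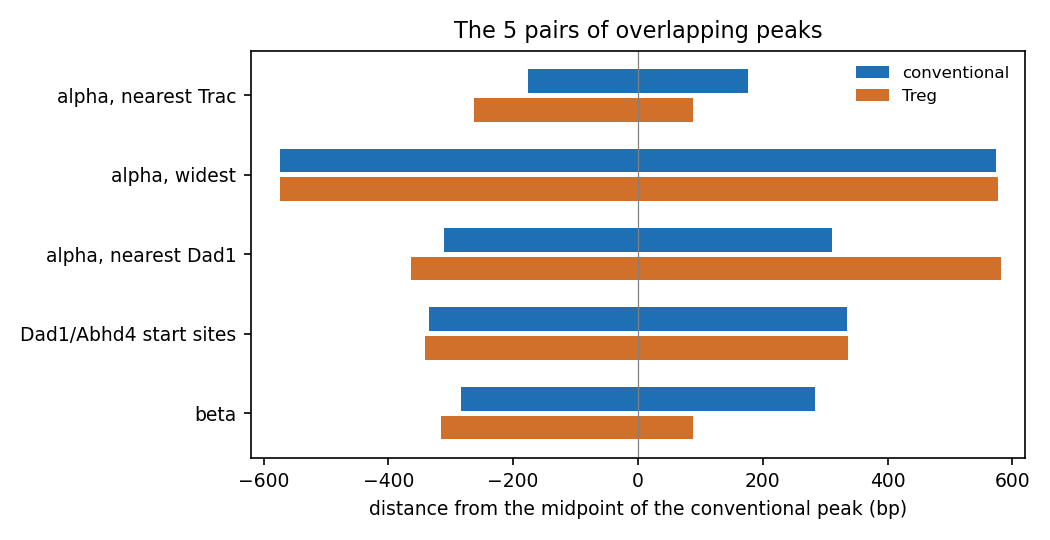
The 5 pairs of overlapping peaks, each drawn in bp from the midpoint of its conventional peak, with the conventional peak above and the Treg peak below. The widest alpha pair and the pair at the Dad1 and Abhd4 start sites have almost the same edges, the pair nearest Dad1 extends 270 bp further in the Treg list, and the beta pair ends 195 bp earlier there.

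Most peaks of the windows were wider than the median of their list, which was 428 bp for conventional and 366 bp for Treg peaks. Among the 5 shared peaks of each list 4 were wider than the median, and the peak nearest Trac was narrower. Unshared peaks were 284 and 674 bp wide in the conventional list and 457 and 485 bp wide in the Treg list. The 674 bp conventional peak was thus as wide as the shared peak over the Dad1 and Abhd4 start sites, and being unshared was not limited to narrow peaks here.

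**Figure D4:**
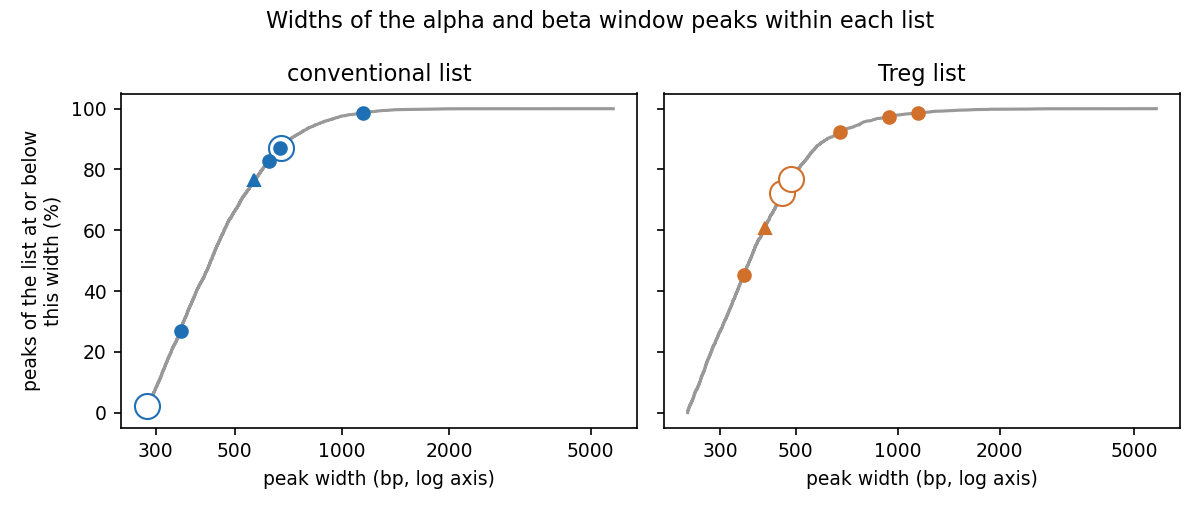
Cumulative share of all peaks by width (log axis, in bp) in each list, with the 7 peaks of the windows as symbols (circles alpha, triangle beta, small filled symbols shared, large open symbols unshared). Widths run from 284 to 1146 bp in the conventional list and from 351 to 1151 bp in the Treg list, and 1 unshared conventional peak (674 bp) lies on a shared peak (671 bp).

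Peaks stood alone in most of the genome. Of conventional peaks 80.3%, and of Treg peaks 83.1%, had no other peak of their list within 10 kb, as was so for the beta peaks, for those over the Dad1 and Abhd4 start sites and for the Treg peak among the Traj segments. Each of the 4 Treg peaks between Trac and Dad1 had 3 others of its list within 10 kb, where 3.5% of Treg peaks had at least 3. The conventional peaks there and in Trac had 3 or 4, where 1.48% of conventional peaks had at least 3. Among 11746 gaps between neighbouring genes of 5 to 20 kb, 2 held at least 4 conventional peaks (0.017%) and 3 held at least 4 Treg peaks (0.0255%). The 2 gaps with at least 4 of each list (0.017%) were that between Trac and Dad1 and that between Supt4a and Mir142b, which held 5 conventional and 4 Treg peaks. At least 5 peaks of each list within 10 kb of the span stood at 8 of 21887 protein-coding genes (0.0366%), among them Dad1, the D cyclin gene Ccnd3, Itpkb, a kinase of inositol phosphates, and Supt4a, a transcription elongation factor. The other 4 were uncharacterised neighbours on chromosome 6. The limits of 3, 4 and 5 peaks equal values found in the gap between Trac and Dad1 and at Dad1. The window was chosen for its peaks, so these shares are descriptions and were not tested. Trac had 5 conventional and 4 Treg peaks within 10 kb of its span, and Trbc2 had 1 of each. The 4 peaks of each list in the gap were counted for both Trac and Dad1.

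Peaks of the receptor loci outside the windows overlapped no peak of the other list. Over the whole lists 42.8% of conventional and 56.9% of Treg peaks overlapped one, and counts this small were not tested against those shares. The nearest conventional peak before the alpha window was 939 kb from its edge and the nearest after it 101 kb, and for Treg peaks these distances were 1160 kb and 204 kb. Around the beta window they were 1008 kb and 207 kb for conventional and 366 kb and 3193 kb for Treg peaks. Inside, the outermost peaks lay 5592 bp or more from an edge. The whole alpha and delta locus, from the first variable segment to Trac (1.80 Mb, 202 segments), held 5 conventional and 2 Treg peaks, all unshared. Besides those in Trac and among the Traj segments, 4 conventional peaks lay at variable segments (nearest Trav5-1, Trav9d-2, Trav12d-3 and Trav12n-3), each 297 to 352 bp wide, and 1 Treg peak of 271 bp lay near Trav7d-6. Variable segments belong to families of near-identical copies, and the labels do not say how reads that match several copies were treated, so peaks at them are uncertain. In the beta locus (0.667 Mb) the Treg list had 1 further peak, 647 bp wide, over Trbv12-1. The gamma locus on chromosome 13 (0.174 Mb), used by another lineage of T cells, had no peak in either list. The alpha and delta locus thus held 2.78 conventional and 1.11 Treg peaks per Mb, where the whole lists held 1.66 and 1.25. Its counts include the conventional peak in Trac and the Treg peak among the Traj segments, which lay inside the alpha window. The beta locus ran the other way between the lists, with 1 conventional and 2 Treg peaks in its 0.667 Mb, and counts this small were not compared by a test.

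Genes that encode the rest of the receptor complex carried shared peaks as well. Of 12 genes of receptor chains, coreceptors and receptor assembly, 7 had a conventional peak within 10 kb of the span and 4 a Treg peak, with a median of 1 and 0 peaks. Of all 21887 protein-coding genes 21.2% had a conventional and 15.1% a Treg peak, with a median of 0 in both, and those shares are not matched on gene length or activity. The 4 genes with a peak of both lists were Cd3e, Cd3d, Cd3g and Cd247, the signalling chains that pair with the alpha and beta chains, and 11.0% of all protein-coding genes had a peak of both. Cd3e, Cd3d and Cd3g lie side by side, and the counts of Cd3d and Cd3g share a peak. It was the widest of the 3 genes and lay at the end of Cd3d on chromosome 9 (44986290 to 44987271 in the conventional list, 982 bp, and 44986265 to 44987012 in the Treg list, 748 bp). Cd247, which encodes the zeta chain, had 1 shared peak inside the gene, 467 bp wide for conventional and 346 bp for Treg cells. Of the 12 genes, 3 had a conventional peak and no Treg peak, as 2244 of all 21887 protein-coding genes did. Neither list had a peak at 5, as was so for 16328 of all protein-coding genes. Ptcra, the partner of the beta chain before the alpha chain is made, Dntt, which adds bases at joints, and the CD8 chain gene Cd8b1 each had 1 unshared conventional peak, 282 to 367 bp wide. Rag1 and Rag2, the recombinase genes, had none in either list, nor did Cd4, Cd8a or Trat1.

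Of 17 genes for factors known to bind the alpha or beta enhancer, 13 had a conventional and 11 a Treg peak within 10 kb, with a median of 1 in each list, where the shares over all protein-coding genes were 21.2% and 15.1%. A peak of both lists stood at 11 of them, where 11.0% of all protein-coding genes had both, and at 10 the peaks overlapped. Lef1 had 8 conventional and 4 Treg peaks, of which 3 in each list were shared. Fli1, an Ets factor, had 6 and 4, and all 4 Treg peaks were shared. Runx1 had 5 and 3 with 2 shared, and Ets1 had 3 in each list with 1 shared. Runx3 had 2 conventional and 1 Treg peaks, Ikzf1 had 3 and 1, and Ctcf had 1 and 2, each with 1 shared. Tcf7, the gene of Tcf1 itself, had 4 in each list. Creb1, which encodes a protein of the cAMP response element, had 1 shared peak at its start, 1281 bp wide for conventional and 1261 bp for Treg cells, wider than any peak in the alpha window. Gata3, Ets2, Atf1 and Myb had no peak in either list, and Cbfb and Tcf3 had 1 conventional peak each and no Treg peak. Long genes have more room for peaks, and the lists were not matched on length.

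**Figure D5:**
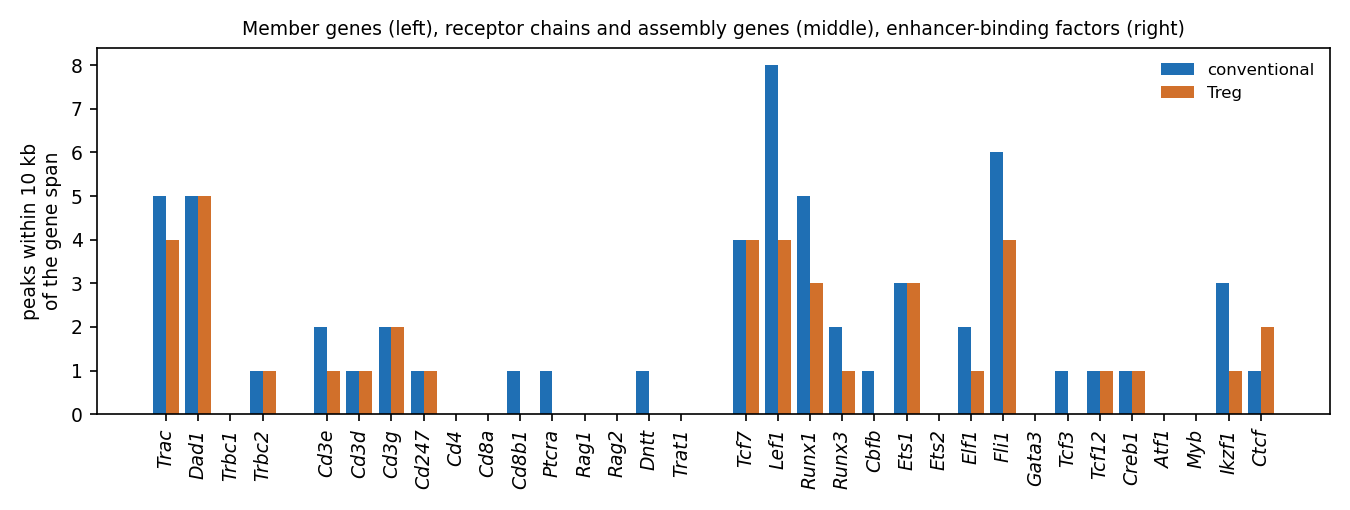
Number of peaks within 10 kb of the gene span in the conventional and Treg lists (bars from 0, 1 list each and no error bar) for the 4 member genes, 12 receptor and assembly genes and 17 factor genes. Trac and Dad1 have 4 or 5 peaks in each list, of which the 4 in the gap between them are counted for both genes. Trbc1 has 0, and Lef1 has the most conventional peaks at 8.

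Marker loci of the sorted cells and of other cell types were looked up in the same way. Among loci of conventional and Treg cells, Il2ra, Ctla4 and Ccr7 had a shared peak within 10 kb of the span. The conventional peak counted for Foxp3 lay 9817 bp outside its span, and no Treg peak was near. Among B cell loci, Cd79a had a shared peak outside its span, 2272 bp away among conventional peaks, while Cd79b and Ms4a1 had none. None of 3 myeloid loci had a peak in either list, as was so for 16328 of all 21887 protein-coding genes. A peak of both lists stood within 10 kb of 11.0% of those genes, and the purity of the sorts was not tested. What part a peak near a B cell locus has in these lists was not tested.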

How the data were processed

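Chromatin immunoprecipitation with an antiserum against Tcf1 was sequenced, per the labels' protocols, in 3 libraries, of which 2 were analysed. MACS2 2.1.1, Bowtie2 2.3.4.1, FastQC and mm10 are named, without roles, per the submitters' processing notes. The authors deposited 1 peak list per sample with 3 columns (chromosome, start, end). The filter named in the deposited file titles, the threshold and any control library are not given in the sources used here. Without reads or scores, precision per peak is unknown, and a deeper library can give more and wider peaks.

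Intervals were handled in pandas 2.3.3 and numpy 2.4.6 (Python 3.11.15), shares in scipy 1.17.1 and plots in matplotlib 3.10.9. Coordinates are 1-based. Peaks were shared if they overlapped by at least 1 bp, and were found in 1 list alone if, in addition, no midpoint of the other list lay within 1000 bp. The overlap step was tested on 1000 simulated peaks, of which 400 were planted as overlapping, and 400 were found. Gene spans and promoter windows came from RefSeq tables of GRCm38.p6, and all genes of the fixed lists matched by symbol. The table gives no exons or introns. A planned motif search in all peaks was run on promoter windows alone, since no genome sequence was used here. Named genes were the 4 members, genes at the windows, members of the fixed lists with a peak, and Cd3e, Cd4, Rag1 and Gata3. Other genes were named after their values were seen. Values of some genes of the marker lists are not reported here. The members and lists were chosen with earlier results of these data known. Alternatives changed the windows, the lists, the overlap rule and the reach around genes.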

Additional observations from a re-analysis of the deposited data

How the results depend on the processing

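With 64 alternatives run, 55 values stayed within 1.5 times of the reported count. All counts of peaks and of shared peaks in the windows were among them. In the alpha window these ran from 4 to 6 conventional and 4 to 6 Treg peaks, with 3 or 4 conventional and 3 to 5 Treg peaks shared, and the beta window kept 1 peak in each list, shared, under every alternative run. The 9 others follow from the distance counted. Within 5 kb, Trac had 3 conventional peaks, Dad1 3 conventional and 2 Treg peaks and Trbc2 0 in each list, and within 20 kb Trbc1 had 1 in each list. With 50 kb added on both sides, the alpha and delta locus held 10 conventional and 7 Treg peaks, since this takes in the peaks beyond Trac. No paired analysis was possible because each cell type has 1 library and no result comes from a test. Depth is unknown, and an unshared peak does not show absence of Tcf1 in the other cell type.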

Other observations

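The immunoglobulin loci, which T cells leave unrearranged for the most part, held 5 peaks in all, none of them shared. Over the whole lists 42.8% of conventional and 56.9% of Treg peaks were shared, and 5 peaks were not tested against those shares. In the heavy chain locus (chromosome 12, 2.75 Mb) 3 conventional peaks, 369 to 446 bp wide, lay over 3 variable segments, and 1 Treg peak of 759 bp (percentile 94.6) lay 1698 bp from the constant gene Ighm. Peaks at variable segments are uncertain here as at the T cell receptor loci, since the treatment of reads that match several copies is unknown. In the kappa locus the Treg list had 1 peak of 435 bp, 6747 bp from the nearest variable segment, and the lambda locus had none. The Treg peak near Ighm was the widest of the unshared peaks of the antigen receptor loci, followed by the Treg peak over Trbv12-1 (647 bp, percentile 91.0). These peaks were singled out with their values known.

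The gap between Mid1 and Erdr1 on chromosome X was the third gap of 5 to 20 kb with at least 4 Treg peaks, and it held 10 Treg peaks and 1 conventional peak, where the gap between Trac and Dad1 held 4 of each. At the factor genes, Tcf12, an E protein, had 1 peak in each list at annotated start sites, and these did not overlap, 375 bp wide for conventional and 662 bp for Treg cells. Elf1, an Ets factor, had a conventional peak of 950 bp at its start with no Treg peak, beside a shared peak 4920 bp outside the gene whose left edges were 1 bp apart.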
